A study of Mus musculus with 8 samples.

Results

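The MHC class II antigen presentation genes of mouse lung were examined in mice given LPS with or without tangeretin. The set held 10 genes taken by symbol: the class II chains H2-Aa, H2-Ab1 and H2-Eb1, the invariant chain Cd74, the peptide editors H2-DMa, H2-DMb1 and H2-Oa, the class II transactivator Ciita, and the co-stimulatory ligands Cd80 and Cd86. All 10 were among the 24584 genes of the count table, and all 10 passed the filter on low counts that left 15706 genes for testing. The mice were male ICR mice, an outbred stock, 6 to 8 weeks of age, whose genotype was labelled widetype. The LPS group received LPS of Escherichia coli O111:B4 intraperitoneally at 5 mg/kg. The LPS + Tan group received the same LPS and, 30 min before it, tangeretin, a flavone of citrus peel, intraperitoneally at 50 mg/kg. Lungs were taken 12 h after LPS, and RNA-seq of whole lung tissue was available for 4 mice of each group. No mouse without LPS and no mouse given tangeretin alone was analysed here, so the level before LPS is not known from these data. Because ICR mice are outbred, the mice need not carry the same alleles of the highly polymorphic H2 region, and alleles were not analysed here.

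Total counts per sample lay between 38895654 in LPS replicate 4 and 39931970 in LPS replicate 3. The label lung fitted the abundant transcripts of the samples, with a mean of 14713 CPM (counts scaled by the TMM-adjusted library total) for the club cell gene Scgb1a1 and 4690.2 CPM for the alveolar type 2 gene Sftpc. The endothelial gene Cldn5 lay between 465 and 777 CPM and the type 1 cell gene Ager between 721 and 1058 CPM.

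MHC class II molecules are heterodimers of an alpha and a beta chain that carry peptides of endocytosed proteins to the cell surface, where CD4 T cells read them. The invariant chain guides the new dimer to endosomes and fills its groove, lysosomal proteases trim it, and H2-DM exchanges the remaining fragment for other peptides while H2-O restrains H2-DM. Ciita switches the class II genes on by docking onto a promoter complex, and interferon-gamma induces Ciita with the help of Irf1. In mouse lung, class II is carried by dendritic cells, B cells, macrophages and also by alveolar type 2 cells.

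A pair of libraries stood apart in these genes. In LPS + Tan replicate 4, H2-Aa, H2-Ab1, H2-DMa, H2-DMb1, Cd74 and Ciita were higher than in any of the other 7 samples, whereas in LPS + Tan replicates 1 and 3 the same 6 genes were lower than in every LPS sample. In LPS replicate 4, H2-Eb1, H2-Aa and H2-DMb1 lay far above the other 3 LPS mice. The result of each member is therefore given over all 8 samples, without LPS + Tan replicate 4, and without replicate 4 of both groups. For the other genes the fits without these mice are given for some of them only. Leaving out each sample in turn was set in advance, but the fit without LPS + Tan replicate 4 is given beside each member because of these values. The fit without replicate 4 of both groups was added after seeing the data.

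Over all 8 samples, 2 of the 10 members, Cd80 and Cd86, were lower in the LPS + Tan group at an unadjusted p below 0.05 in edgeR's quasi-likelihood test, and 0 were higher. Among all tested genes, 2.25% (353 genes) were lower and 2.87% (451 genes) were higher by that rule. At an adjusted p below 0.05, edgeR called 0 members and 0 of all tested genes, which is 0.0%. Other tools called 35 genes (DESeq2), 23 (edgeR's likelihood ratio test), 2 (limma on the FPKM of all genes) and 0 (limma-voom) at that level, with 0 members among them. At the thresholds of the study, an unadjusted p below 0.05 with an absolute log2 fold change above 1, 0 members were lower against 0.299% of tested genes. All 10 log2 fold changes were below 0, with a median of −0.21 beside 0.0070 over all tested genes.

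Without LPS + Tan replicate 4, 6 of the 10 members were lower at an unadjusted p below 0.05 and 0 were higher, beside 4.56% and 4.78% of the 15932 genes then tested. These were H2-Aa, H2-Ab1, H2-Eb1, H2-DMa, Ciita and Cd80. H2-Eb1 and Ciita then also passed a log2 fold change of −1, which 0.64% of genes did. This fit leaves out the mouse that was highest in 6 members. It keeps LPS replicate 4, whose H2-Eb1 was 128 CPM against 5.98 to 7.21 CPM in the other LPS mice. Leaving out any other single sample gave 0 to 2 lower members. Without replicate 4 of both groups the count was 2 lower, Ciita and Cd86, and 0 higher, beside 4.02% and 4.34% of 15781 genes, and Ciita alone was beyond a log2 fold change of −1, beside 0.564% of genes. In bulk lung, fewer cells of a type and less RNA per cell cannot be told apart.

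**Figure D1:**
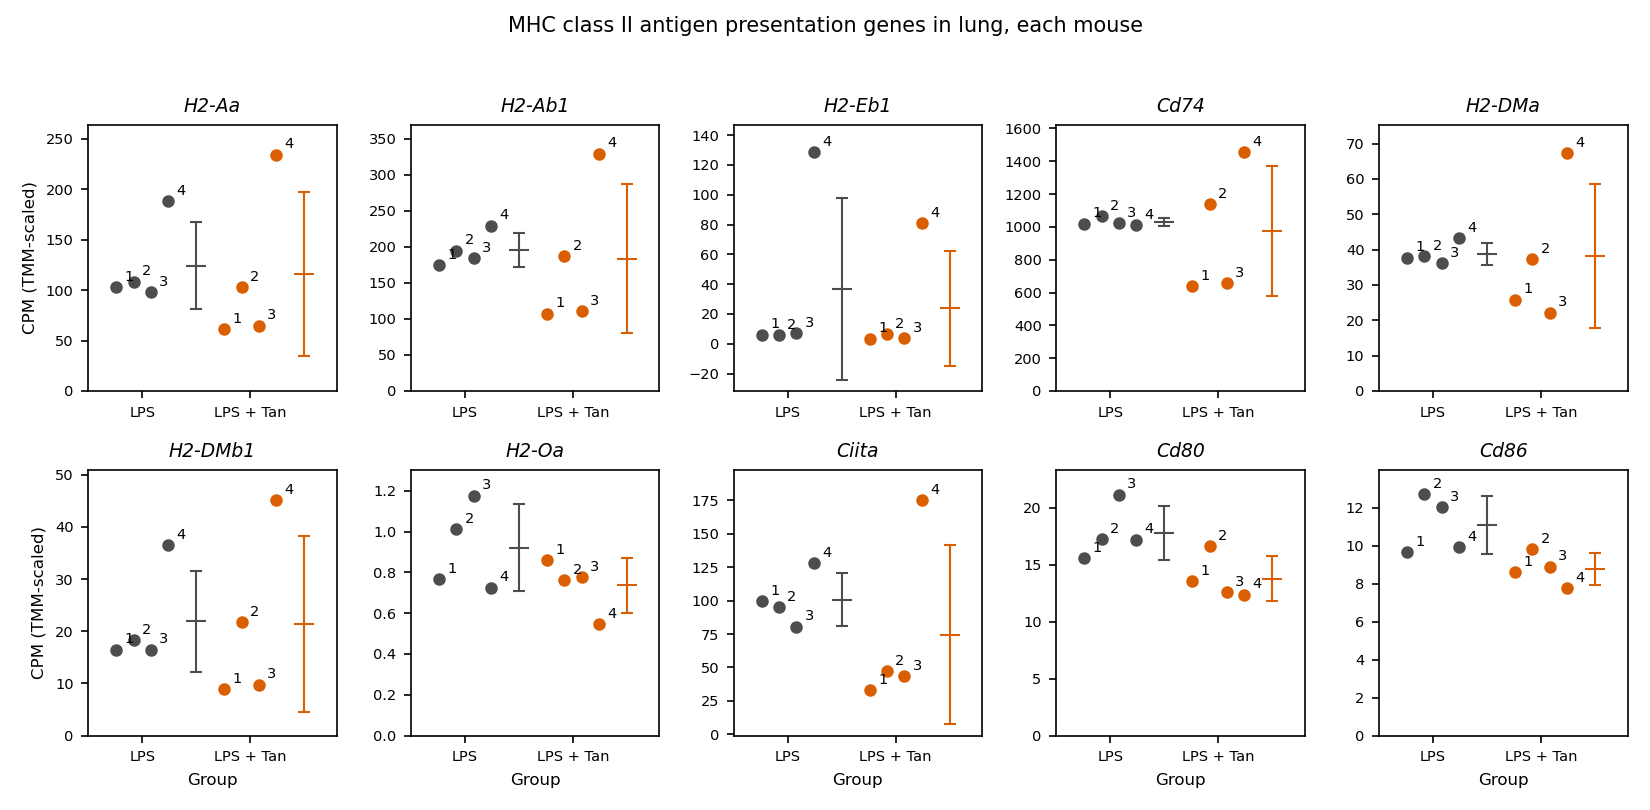
Level of each of the 10 genes in each mouse, in CPM after TMM scaling (vertical axis), for the LPS and LPS + Tan groups (horizontal axis). Points are mice with their replicate number, and the bar beside them is the mean with SD over 4 mice, which reaches below 0 for H2-Eb1. Replicate 4 of the LPS + Tan group is the highest sample for 6 genes, and Cd80 and Cd86 lie mostly lower in that group.

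H2-Aa encodes the alpha chain of the I-A molecule. Its level was 103, 108, 97.6 and 188 CPM in LPS replicates 1 to 4 and 61.3, 103, 64.8 and 234 CPM in LPS + Tan replicates 1 to 4. LPS + Tan replicates 1 and 3 were below every LPS mouse, replicate 2 lay within the LPS range, and replicate 4 was the highest of all 8. Over all samples the log2 fold change was −0.10 ± 0.41 (SE), with an edgeR adjusted p of 0.992. It was −0.70 ± 0.27 without LPS + Tan replicate 4 and −0.43 ± 0.19 without replicate 4 of both groups.

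H2-Ab1, the I-A beta chain that pairs with H2-Aa, measured 175, 195, 184 and 229 CPM in the LPS mice and 107, 187, 111 and 329 CPM in the LPS + Tan mice. The samples fell in the same arrangement as for H2-Aa, with LPS + Tan replicates 1 and 3 below and replicate 4 above all LPS mice. The group means were 196 ± 23.9 and 184 ± 104 CPM (SD). The spread within the LPS + Tan group thus exceeded the difference between the means, and the log2 fold change of −0.092 ± 0.32 had an adjusted p of 0.989. Without LPS + Tan replicate 4 it was −0.53 ± 0.20, and without both replicates 4 it was −0.45 ± 0.21.

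H2-Eb1 encodes the beta chain of I-E. It gave 6.14, 5.98, 7.21 and 128 CPM in LPS replicates 1 to 4 and 3.42, 6.36, 3.77 and 81.1 CPM in LPS + Tan replicates 1 to 4. Replicate 4 of each group stood far above the other 6 mice, which lay between 3.42 and 7.21 CPM. The raw counts were 4951 in LPS replicate 4 and 3121 in LPS + Tan replicate 4, against 240, 236 and 276 in the other LPS mice and 139, 250 and 155 in the other LPS + Tan mice. The highest sample was 37.5 times the lowest, while for H2-Ab1 this ratio was 3.07. The fitted difference therefore depended on which mouse was kept: the log2 fold change was −0.64 ± 1.27 (adjusted p = 0.982) over all samples and −3.03 ± 1.22 without LPS + Tan replicate 4. It was 1.88 without LPS replicate 4, and with neither of these mice it was −0.51 ± 0.26.

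Cd74, the invariant chain, had the highest FPKM of the members. The LPS mice were close together at 1019.8, 1067, 1021 and 1011 CPM, and the LPS + Tan mice gave 638, 1137, 659 and 1458 CPM. LPS + Tan replicates 1 and 3 lay below and replicates 2 and 4 above the whole LPS range, so that the groups did not differ in their mean by more than the spread, at 1029.7 ± 25.00 and 973 ± 397 CPM (SD). For Cd74 the log2 fold change was −0.082 ± 0.24 (adjusted p = 0.988), and it was −0.34 ± 0.19 without LPS + Tan replicate 4 and −0.35 ± 0.22 without both replicates 4.

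H2-DMa, the alpha chain of the peptide editor H2-DM, had 37.7, 38.2, 36.2 and 43.3 CPM in the LPS mice and 25.9, 37.3, 22.1 and 67.2 CPM in the LPS + Tan mice. Here too LPS + Tan replicates 1 and 3 were the lowest and replicate 4 the highest of the 8 samples. The log2 fold change was −0.028 ± 0.29 (adjusted p = 0.998) over all samples, −0.45 ± 0.16 without LPS + Tan replicate 4 and −0.40 ± 0.18 without both replicates 4.

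H2-DMb1 encodes a beta chain of H2-DM. Its level was 16.5, 18.3, 16.5 and 36.4 CPM in the LPS mice and 8.86, 21.7, 9.75 and 45.2 CPM in the LPS + Tan mice. Replicate 4 was the highest mouse in each group, and in the LPS + Tan group replicates 1 and 3 were below every LPS mouse. Its fold change on the log2 scale was −0.037 ± 0.49 (adjusted p = 0.998), with −0.71 ± 0.39 without LPS + Tan replicate 4 and −0.35 ± 0.32 without both. H2-DMb1 has a neighbouring copy, H2-DMb2, whose longest coding transcript in GENCODE was 94.6% identical to that of H2-DMb1 over 1219 aligned bases, so the split of reads between the copies is uncertain.

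H2-Oa, the alpha chain of H2-O, had the lowest FPKM of the members, with raw counts of 30, 40, 45 and 28 in the LPS mice and 35, 30, 32 and 21 in the LPS + Tan mice. The groups overlapped, at 0.921 ± 0.212 and 0.737 ± 0.135 CPM (SD), and unlike the other editors H2-Oa was lowest of all in LPS + Tan replicate 4. The log2 fold change was −0.32 ± 0.28 (adjusted p = 0.951). It was −0.20 ± 0.29 without LPS + Tan replicate 4 and −0.30 ± 0.31 without both replicates 4.

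Ciita, the transactivator on which class II transcription rests, gave 99.5, 95.01, 80.6 and 128 CPM in LPS replicates 1 to 4 and 32.8, 47.3, 43.5 and 175 CPM in LPS + Tan replicates 1 to 4. LPS + Tan replicates 1 to 3 were all below the lowest LPS mouse, and replicate 4 was above the highest one. Among all tested genes, 1.99% had this arrangement, and of the 10 members only Ciita did. Over all samples the log2 fold change was −0.43 ± 0.47, with an edgeR adjusted p of 0.966. Without LPS + Tan replicate 4, Ciita was lower at an unadjusted p below 0.05, with a log2 fold change of −1.29 ± 0.18 and an edgeR adjusted p of 0.0782, the lowest in a range of 0.0782 to 0.9999 over the alternatives. Without replicate 4 of both groups the log2 fold change was −1.16 ± 0.15, again at an unadjusted p below 0.05. In LPS + Tan replicate 4 the level was 4.25 times the mean of the other 3 LPS + Tan mice.

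Cd80 and Cd86 are the ligands by which antigen-presenting cells engage CD28 and CTLA-4 on T cells, and they behaved unlike the class II chains. Cd80 measured 15.6, 17.3, 21.2 and 17.2 CPM in the LPS mice and 13.6, 16.6, 12.6 and 12.4 CPM in the LPS + Tan mice. LPS + Tan replicates 1, 3 and 4 were below every LPS mouse and replicate 2 lay within the LPS range, so that the groups overlapped in 1 mouse. Cd80 was lower in the LPS + Tan group at an unadjusted p below 0.05, with a log2 fold change of −0.37 ± 0.13 and an edgeR adjusted p of 0.924. Its fold change on the log2 scale was −0.32 ± 0.14 without LPS + Tan replicate 4 and −0.34 ± 0.16 without both replicates 4.

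Cd86 measured 9.67, 12.7, 12.02 and 9.93 CPM in the LPS mice and 8.61, 9.82, 8.90 and 7.77 CPM in the LPS + Tan mice. Again LPS + Tan replicates 1, 3 and 4 were below all LPS mice, and replicate 2 was just above the lowest of them. Cd86 was lower at an unadjusted p below 0.05, with a log2 fold change of −0.34 ± 0.13 and an edgeR adjusted p of 0.924. It was −0.28 ± 0.13 without LPS + Tan replicate 4 and −0.33 ± 0.14 without both. In no member was every LPS + Tan mouse below every LPS mouse, an arrangement that 1.15% of tested genes had.

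Per transcript length, the members spanned a wide range of levels. The median FPKM over the 8 samples was 709 for Cd74, 153 for H2-Ab1 and 90.9 for H2-Aa, and in all 8 samples Cd74 was above H2-Ab1 and H2-Ab1 above H2-Aa. H2-DMb1 followed with a median FPKM of 13.5, below H2-Aa in every sample, and then Ciita with 8.85. H2-DMa, Cd80 and H2-Eb1 had median FPKM values of 4.48, 4.40 and 3.72, and their ranges overlapped, so that their order differed from mouse to mouse. Cd86 had a median FPKM of 3.42 and H2-Oa, lowest in every sample, of 0.649. H2-Eb1 was above Cd86 in 5 of 8 samples. In LPS replicate 4 and LPS + Tan replicate 4, with FPKM of 76.3 and 47.2, H2-Eb1 was also above H2-DMb1 and Ciita. The deposited FPKM of H2-DMa corresponds to a length of 8325 bases, whereas its longest GENCODE transcript has 2005 bases, so its place in this order depends on the length used.

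Ratios within a mouse are free of differences in total class II level, and they set both replicates 4 apart. The FPKM ratio of H2-Eb1 to H2-Ab1 was 0.0251, 0.0220, 0.0280 and 0.400 in the LPS mice and 0.0228, 0.0243, 0.0242 and 0.176 in the LPS + Tan mice. In replicates 1 to 3 of both groups it stayed between 0.0220 and 0.0280, although H2-Ab1 itself differed between these mice. The FPKM ratio of H2-Aa to H2-Ab1 was 0.625, 0.589, 0.560 and 0.867 in the LPS mice and 0.605, 0.583, 0.616 and 0.752 in the LPS + Tan mice. The 6 other mice lay between 0.560 and 0.625, below both replicates 4.

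The FPKM ratio of H2-DMb1 to its neighbouring copy H2-DMb2 was 1.31, 1.42, 0.971 and 2.64 in the LPS mice and 1.34, 1.21, 1.09 and 3.72 in the LPS + Tan mice, again highest in replicate 4 of each group. Over the 8 samples, Pearson's r of log2 CPM between the copies was 0.576 and Spearman's rho 0.452, and r was 0.928 without the replicates 4. H2-DMb2 was named after its values were seen. The FPKM ratio of Cd74 to H2-Ab1 went the other way and was lowest in the replicates 4, at 3.72 and 3.73, against 4.62 to 5.13 in the other 6 mice. Among those 6 it was 4.92, 4.62 and 4.67 in the LPS mice and higher, at 5.02, 5.13 and 5.00, in the LPS + Tan mice. By contrast, the FPKM ratio of H2-DMa to H2-Ab1 moved little, between 0.0271 and 0.0346, and that of Cd86 to Cd80 lay between 0.731 and 0.947 with the groups overlapping. None of these 6 ratios separated the groups over all 8 mice, and what set the replicates 4 apart was not tested.

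**Figure D2:**
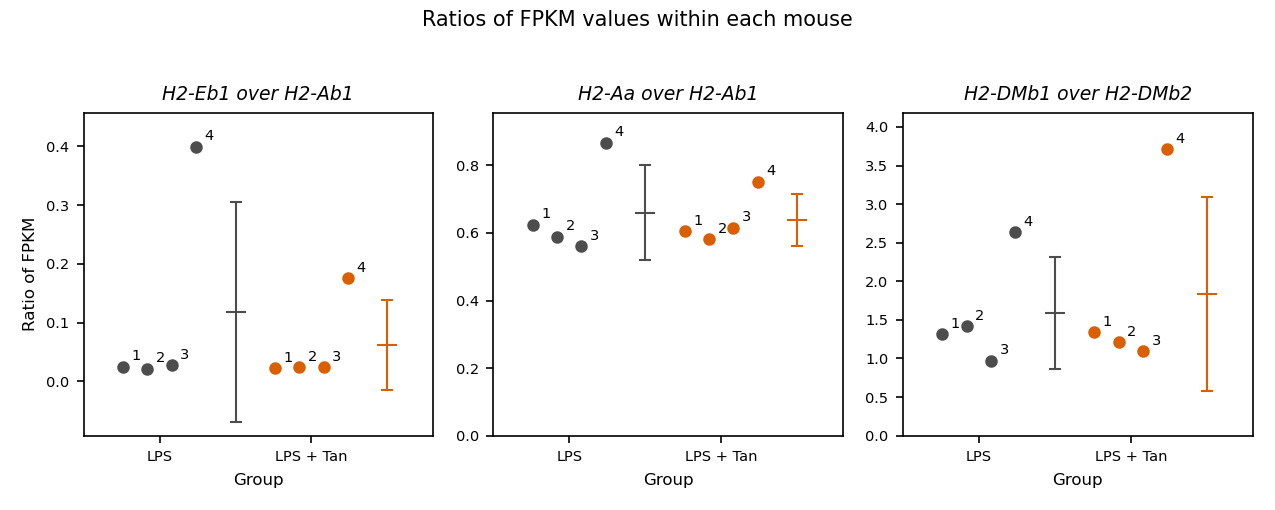
FPKM ratio of H2-Eb1 to H2-Ab1, H2-Aa to H2-Ab1 and H2-DMb1 to H2-DMb2 within each mouse (vertical axis, no unit) for the LPS and LPS + Tan groups (horizontal axis). Points are mice with their replicate number, and bars give the mean with SD over 4 mice, which reaches below 0 for the first ratio. Replicate 4 of each group lies above the other mice in all 3 panels.

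Between mice, H2-Aa, H2-Ab1, H2-DMa, H2-DMb1 and Cd74 varied together. Over the 8 samples, Pearson's r of log2 CPM between H2-Aa and H2-Ab1 was 0.962 and Spearman's rho 0.929, and r was 0.991 without the replicates 4, which were farthest from the median of H2-Aa. Between H2-DMa and H2-DMb1 r was 0.933 and rho 0.905, with r = 0.924 without LPS + Tan replicates 3 and 4. For H2-Ab1 and Cd74, r was 0.955 and rho 0.738, and r was 0.881 without LPS + Tan replicates 1 and 4. These values are descriptions over 8 mice, whose points share the library and its depth.

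Ciita followed the class II chains in the same way, but not H2-Oa. Its r with H2-Aa was 0.907 and rho 0.952 over 8 samples, and r was 0.804 without LPS + Tan replicates 1 and 3. With Cd74 the values were 0.800 and 0.548, and r fell to 0.424 without those mice, so this relation rests on them. With H2-Oa, r was −0.350 and rho −0.571, and r was −0.492 without those mice and 0.407 without the replicates 4. With Cd80, r was 0.141 and rho 0.0238, and with Cd86 they were 0.0628 and 0.0714. Without LPS + Tan replicates 1 and 3 these r values were −0.551 and −0.455, and without the replicates 4 they were 0.634 and 0.752. The sign of these relations thus turned with the mice left out. Cd80 and Cd86 followed each other, with r = 0.863 and rho = 0.952, and r = 0.737 without LPS + Tan replicate 4 and LPS replicate 3. In all, 29 such pairs were computed.

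The route from interferon-gamma to Ciita was described by 14 genes, of which all 14 were tested. Over all samples, 0 were lower and 0 higher at an unadjusted p below 0.05, with 10 log2 fold changes below 0 and a median of −0.16. Without LPS + Tan replicate 4, 6 of the 14 were lower and 0 higher, with a median of −0.21, beside 4.56% and 4.78% of all genes tested. Without both replicates 4 again 6 were lower and 0 higher, beside 4.02% and 4.34%. In both of these fits Ifng, Irf1, Irf8, Socs1 and Nlrc5 were among the lower genes. The same shares, and 2.25% and 2.87% over all samples, apply to the counts of the lists below. The arrangement of Ciita, with LPS + Tan replicates 1 to 3 below and replicate 4 above all LPS mice, was present in 1.99% of all tested genes. It was present in 6 other genes of the pathway lists: Ifng, Irf1, Irf8, Socs1, Cd274 and Cd40. The same arrangement was present in Ager and Hopx, markers of type 1 cells, so it was not confined to these lists. Except for Cd274, these genes were named after their values were seen.

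Ifng, the cytokine itself, gave 5.70, 3.55, 6.06 and 5.68 CPM in the LPS mice and 0.959, 1.42, 1.63 and 13.9 CPM in the LPS + Tan mice, with raw counts of 39, 56, 67 and 536 in the latter. Its log2 fold change was −0.23 ± 0.74 (adjusted p = 0.989) over all samples, −1.97 ± 0.27 without LPS + Tan replicate 4 and −1.93 ± 0.30 without both replicates 4. In LPS + Tan replicate 4 it was 2.66 times the mean of the LPS mice.

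Irf1, an interferon-induced transcription factor that acts on the Ciita promoter, measured 664, 686, 709 and 735 CPM in the LPS mice and 289, 415, 385 and 989.8 CPM in the LPS + Tan mice. Its log2 fold change was −0.43 ± 0.32 (adjusted p = 0.938), and without LPS + Tan replicate 4 it was −0.95 ± 0.13 (edgeR adjusted p = 0.0782, range 0.0782 to 0.9999 over the alternatives), with −0.92 ± 0.14 without both replicates 4. The Irf1 values of the LPS mice were close together and stood clear of all 4 LPS + Tan mice, 3 of which were below and 1 above them.

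Socs1, a feedback inhibitor of the receptor's kinases, measured 25.8, 24.2, 33.9 and 28.4 CPM in the LPS mice and 5.56, 10.5, 10.3 and 44.6 CPM in the LPS + Tan mice. Its log2 fold change moved from −0.67 ± 0.53 (adjusted p = 0.940) to −1.68 ± 0.23 without LPS + Tan replicate 4 and −1.68 ± 0.25 without both. Irf8, a factor of macrophages and dendritic cells, had 127, 157, 152 and 165 CPM in the LPS mice and 54.9, 113, 80.9 and 191 CPM in the LPS + Tan mice, with log2 fold changes of −0.45 ± 0.31 (adjusted p = 0.932) over all samples, −0.86 ± 0.21 without that mouse and −0.81 ± 0.24 without both. The upper and lower ends of both genes thus lay within the LPS + Tan group.

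Among the 14 genes, Nlrc5, the transactivator of MHC class I genes and a relative of Ciita, had the lowest p of those with a negative log2 fold change, −0.37 ± 0.18 (adjusted p = 0.924). It gave 138, 160.1, 152 and 187 CPM in the LPS mice and 85.9, 117, 125 and 165 CPM in the LPS + Tan mice, so that replicate 4 here lay within the LPS range, and its log2 fold change was −0.54 ± 0.15 without that mouse and −0.46 ± 0.14 without both. Irf4, a factor of B cells and dendritic cells, was next, with a log2 fold change of −0.32 ± 0.16 (adjusted p = 0.924), and −0.26 ± 0.16 and −0.31 ± 0.18 in the other fits. All 4 LPS + Tan mice, between 3.41 and 4.37 CPM, were below the LPS mice, of which the lowest had 4.39 CPM. By FPKM the groups overlapped, since LPS + Tan replicates 2 and 3 (0.917 and 0.926) were above LPS replicate 3 (0.879). The receptor chains Ifngr2 and Ifngr1 had log2 fold changes of 0.14 ± 0.076 (adjusted p = 0.924) and 0.050 ± 0.073 (adjusted p = 0.978) over all samples. Ciita correlated with Irf1 at r = 0.977 and rho = 0.905 over 8 samples, and at r = 0.951 without LPS + Tan replicates 1 and 3. The corresponding values with Ifng were 0.958, 0.810 and 0.915.

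**Figure D3:**
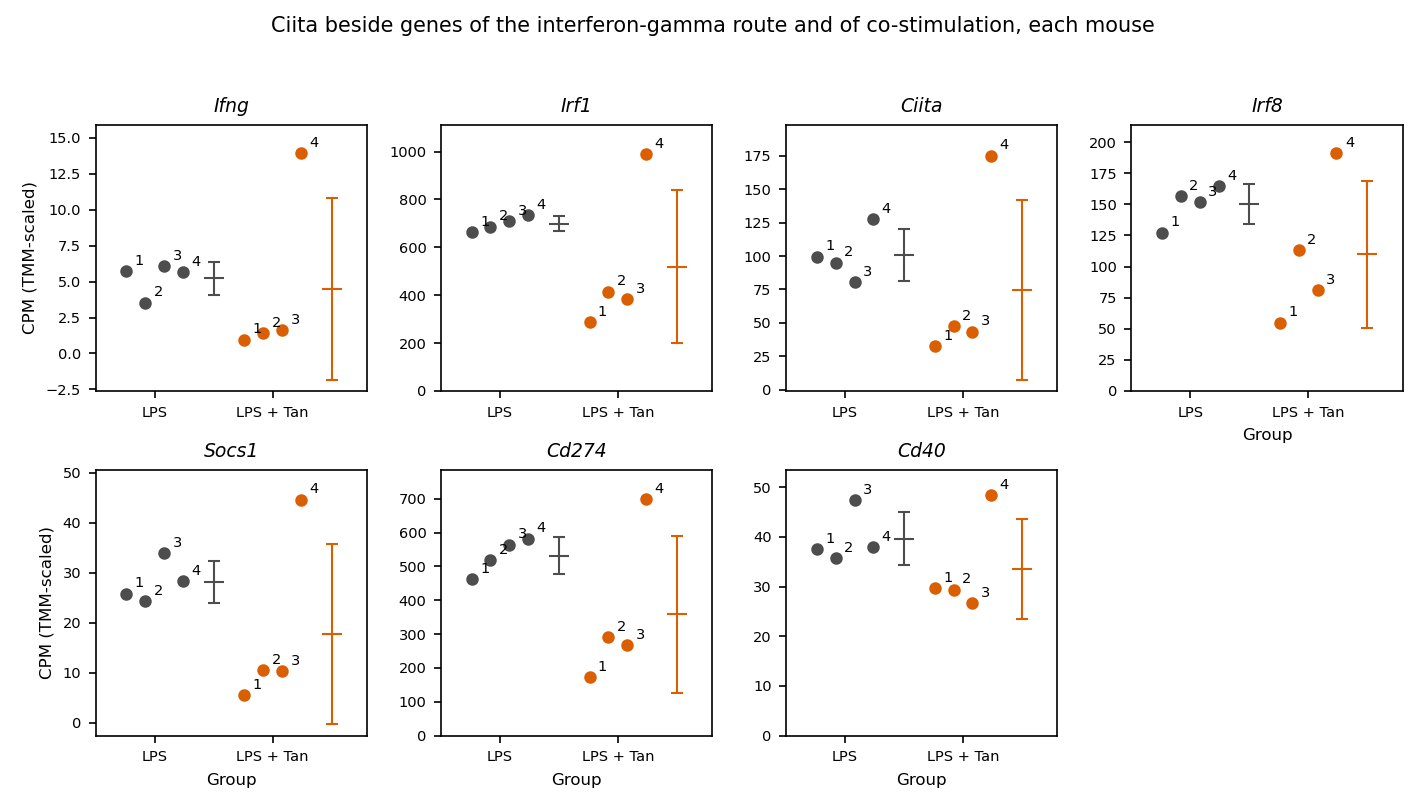
Level of Ciita beside Ifng, Irf1, Irf8 and Socs1 of the interferon-gamma route and Cd274 and Cd40 of the co-stimulation list in each mouse, in CPM after TMM scaling (vertical axis), for the LPS and LPS + Tan groups (horizontal axis). Points are mice with their replicate number and bars give the mean with SD over 4 mice, which reaches below 0 for Ifng and Socs1. In each of the 7 panels LPS + Tan replicates 1 to 3 lie below and replicate 4 above all LPS mice.

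Ciita docks onto the class II promoter complex, for which 11 genes were listed and all tested. Of these, 1 was lower and 0 higher at an unadjusted p below 0.05, beside 2.25% and 2.87% of all tested genes. Their median log2 fold change was 0.055. The lower gene was Rfx5, a subunit of the RFX factor that binds the X box of class II promoters, with 21.05, 30.3, 29.2 and 28.4 CPM in the LPS mice and 18.6, 24.3, 21.6 and 23.9 CPM in the LPS + Tan mice. The groups overlapped, with LPS replicate 1 among the lowest samples, and the log2 fold change was −0.30 ± 0.13 (edgeR adjusted p = 0.924). It was −0.34 ± 0.14 without LPS + Tan replicate 4, still at an unadjusted p below 0.05, and −0.32 ± 0.16 without both, where it no longer was. Nfya and Nfyc, subunits of the Y box factor NF-Y, had log2 fold changes of 0.15 ± 0.087 (adjusted p = 0.926) and −0.074 ± 0.096 (adjusted p = 0.974), and Rfxank, another RFX subunit, of 0.18 ± 0.14 (adjusted p = 0.940). Nfya was higher at an unadjusted p below 0.05 without LPS + Tan replicate 4, with 0.19 ± 0.082, and without both it was not, with 0.15 ± 0.086. In the fit without LPS + Tan replicate 4 the list had 1 lower and 2 higher genes, and without both replicates 4 0 and 1. Crebbp was the gene higher in both of these fits, with log2 fold changes of 0.18 ± 0.073 and 0.21 ± 0.082, and 0.087 ± 0.11 over all samples. Crebbp was named after its values were seen.

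The 3 other class II genes of the table had log2 fold changes below 0, with 0 at an unadjusted p below 0.05 and a median of −0.69. H2-Eb2, a neighbour of H2-Eb1, gave 0.460, 1.01, 0.993 and 1.66 CPM in the LPS mice and 0.271, 0.839, 0.292 and 0.806 CPM in the LPS + Tan mice (log2 fold change −0.90 ± 0.49, adjusted p = 0.924). H2-Ob, the beta chain of H2-O, gave 0.614, 0.355, 0.549 and 1.22 CPM and 0.246, 0.432, 0.365 and 0.650 CPM (log2 fold change −0.69 ± 0.45, adjusted p = 0.930). In both genes LPS replicate 4 was the highest sample and the groups overlapped. The longest coding transcripts of H2-Eb1 and H2-Eb2 shared 70.2% of 1465 aligned bases.

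Of 11 genes for endosomal proteases, an inhibitor of them and the endosomal thiol reductase, all tested, 0 were lower and 0 higher at an unadjusted p below 0.05, with a median log2 fold change of 0.076. The median was −0.0073 without LPS + Tan replicate 4 and −0.040 without both replicates 4, so that its sign turned. Sppl2a, the protease that clears the last stub of the invariant chain from the membrane, had the lowest p, with 335, 343, 435 and 354 CPM in the LPS mice and 306, 299.7, 311 and 379 CPM in the LPS + Tan mice. LPS + Tan replicates 1 to 3 were below the LPS mice and replicate 4 within their range, with a log2 fold change of −0.18 ± 0.12 (adjusted p = 0.930) over all samples, −0.26 ± 0.10 without replicate 4 and −0.28 ± 0.12 without both. In both fits without replicates 4 Sppl2a was lower at an unadjusted p below 0.05, the only call among the 11. Ctss, the cathepsin that trims the invariant chain in antigen-presenting cells, lay between 311 and 410.3 CPM, with a log2 fold change of 0.090 ± 0.11 (adjusted p = 0.972). It was 0.028 ± 0.098 without LPS + Tan replicate 4 and −0.015 ± 0.10 without both, where its sign turned. The cathepsins Ctsl and Ctsb had log2 fold changes of 0.11 ± 0.12 (adjusted p = 0.967) and −0.11 ± 0.090 (adjusted p = 0.947).

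Of 6 genes of class II turnover, all tested, 1 was lower and 0 higher, with a median log2 fold change of −0.066. The lower gene was Marchf8, a membrane ubiquitin ligase of the family that takes class II from the surface. It gave 105, 113, 120.2 and 107 CPM in the LPS mice and 94.3, 93.8, 98.6 and 105 CPM in the LPS + Tan mice. LPS + Tan replicates 1 to 3 were below all LPS mice and replicate 4 just above the lowest, with a log2 fold change of −0.18 ± 0.078 (edgeR adjusted p = 0.924). Marchf8 stayed at an unadjusted p below 0.05 without LPS + Tan replicate 4 (−0.22 ± 0.072) and without both (−0.24 ± 0.081). Cd83, which protects class II from that ligation, had a log2 fold change of −0.28 ± 0.13 (adjusted p = 0.924). Stx11, a syntaxin of endosomal membranes, had 0.073 ± 0.11 (adjusted p = 0.980) and Il10ra, a chain of the interleukin-10 receptor, 0.051 ± 0.14 (adjusted p = 0.987).

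Of 18 partners of co-stimulation and checkpoints, 15 were tested, of which 1 was lower and 1 higher at an unadjusted p below 0.05, with a median log2 fold change of −0.0039. Pdcd1lg2, the second ligand of the inhibitory receptor PD-1, gave 1.25, 1.93, 1.65 and 1.45 CPM in the LPS mice and 0.861, 0.916, 0.948 and 0.728 CPM in the LPS + Tan mice. It was lower in each of the 4 LPS + Tan mice than in any LPS mouse, with a log2 fold change of −0.86 ± 0.23 (edgeR adjusted p = 0.895). Without LPS + Tan replicate 4 (−0.79 ± 0.25) and without both (−0.82 ± 0.28) it stayed at an unadjusted p below 0.05, so that this gene, like Cd80 and Cd86, did not share the high value of replicate 4.

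Cd274, which encodes the other PD-1 ligand, did share it, at 462, 519.6, 565 and 582 CPM in the LPS mice and 174, 292, 267 and 699.6 CPM in the LPS + Tan mice. Its log2 fold change was −0.57 ± 0.35 (adjusted p = 0.928) over all samples, −1.12 ± 0.18 without LPS + Tan replicate 4 and −1.08 ± 0.19 without both. Icos, a co-stimulatory receptor of T cells, was higher, with 1.61, 1.19, 1.72 and 1.32 CPM in the LPS mice and 2.19, 3.79, 1.63 and 1.87 CPM in the LPS + Tan mice. LPS + Tan replicate 3 lay within the LPS range and the others above it, and the log2 fold change was 0.70 ± 0.29 (edgeR adjusted p = 0.924). It was 0.79 ± 0.31 without LPS + Tan replicate 4, at an unadjusted p below 0.05, and without both 0.75 ± 0.36, which was not. Cd27, a T cell receptor for the ligand Cd70, had a log2 fold change of 0.62 ± 0.30 (adjusted p = 0.924), and Cd40, the receptor by which T cells license antigen-presenting cells, of −0.24 ± 0.18 (adjusted p = 0.938). Cd40 was lower at an unadjusted p below 0.05 without LPS + Tan replicate 4, with −0.47 ± 0.11, and without both, with −0.50 ± 0.12. The list had, without LPS + Tan replicate 4, 3 lower and 2 higher genes, and without both replicates 4 3 and 1.

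Outside these lists, the 5 genes whose log2 CPM followed the mean of H2-Aa, H2-Ab1, H2-Eb1 and Cd74 most closely over the 8 samples, after removing each group's mean, were Ubd, Dusp10, Plaat3, Sdhaf2 and Ppp1r11, out of 11141 genes with a mean CPM of at least 5. Their r values lay between 0.963 and 0.976. Ubd, which encodes a ubiquitin-like modifier, ranged most widely, with 30.7, 32.3, 22.2 and 114 CPM in the LPS mice and 4.11, 20.5, 7.15 and 179 CPM in the LPS + Tan mice. Replicate 4 was the highest mouse of its group in Ubd, in Plaat3 with 76.8 and 91.7 CPM, and in Ppp1r11 with 72.1 and 69.8 CPM. It was also highest in Dusp10, with 12.7 and 14.9 CPM, and in Sdhaf2, with 46.8 and 44.03 CPM. Because these genes were chosen for following a mean that was itself high in the replicates 4, this place followed from the choice. Ppp1r11 and Ubd lie on chromosome 17, as the H2 members do, at chr17:36948355-36951792 and chr17:37193892-37196101 in the RefSeq annotation of GRCm38.p6, whereas Dusp10 lies on chromosome 1 and Plaat3 and Sdhaf2 on chromosome 19.

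Markers of cells that carry class II were summed for each mouse. The 8 conventional dendritic cell markers summed to 68.1, 65.4, 60.3 and 73.95 CPM in the LPS mice and 77.03, 78.4, 72.1 and 72.5 CPM in the LPS + Tan mice. Their most abundant gene by CPM was Zbtb46 with a mean of 38.6 CPM, and Xcr1 and Cd209a were at 0 in at least 1 sample. Of the 6 tested, 0 were lower and 0 higher at an unadjusted p below 0.05, against 0 lower and 1 higher in both of the other fits. LPS + Tan replicate 4 lay inside the range of the other mice in this sum. This rested on Zbtb46, which was highest of all in that mouse, at 45.8 CPM. Itgax (19.3 CPM) and Clec10a (2.63 CPM) were the lowest of all in that mouse, while Clec9a (0.650 CPM) was the highest. Flt3 had a log2 fold change of −0.63 ± 0.28, with 3 LPS + Tan mice below every LPS mouse. Itgax, Clec10a, Clec9a and Flt3 were named after their values were seen.

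The 5 markers of mature dendritic cells, led by Fscn1 with a mean of 92.3 CPM, summed to 182, 238, 231 and 180.4 CPM in the LPS mice and 161, 160.4, 137 and 170.4 CPM in the LPS + Tan mice. Every LPS + Tan mouse was below every LPS mouse in this sum, but this rested on Ccl22. Without it the sums were 136, 163, 168 and 135 CPM and 129, 141, 111 and 131 CPM, and LPS + Tan replicate 2 lay within the LPS range. Fscn1 by itself also had all 4 LPS + Tan mice, at 71.0 to 90.6 CPM, below the LPS mice, at 91.4 to 119 CPM. By FPKM its groups overlapped, since LPS + Tan replicate 1 (35.0) was above LPS replicate 4 (34.0). Of the other markers, Cacnb3 went the other way and was above every LPS mouse in 3 LPS + Tan mice (log2 fold change 0.14 ± 0.099), while Ccr7 had a log2 fold change of −0.16 ± 0.28, with LPS + Tan replicates 1 and 3 below every LPS mouse and replicate 2 highest of all. Of 4 tested markers, 2 were lower and 0 higher at an unadjusted p below 0.05: Ccl22, with a log2 fold change of −0.97 ± 0.23 (adjusted p = 0.850, range 0.0270 to 0.9999 over the alternatives), and Fscn1, with −0.33 ± 0.11 (adjusted p = 0.924). Without LPS + Tan replicate 4 and without both replicates 4, 2 markers were lower and 0 higher as well. Ccl22, a chemokine of mature dendritic cells, was called at an adjusted p below 0.05 by DESeq2 and edgeR's likelihood ratio test and by no other alternative. Ccl22, Cacnb3 and Ccr7 were named after their values were seen. The part of these cells in the lower Cd80, Cd86 and Pdcd1lg2 was not tested.

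The 8 B cell markers, led by Cd79b with a mean of 9.14 CPM, summed to 46.2, 29.4, 38.1 and 33.9 CPM in the LPS mice and 34.9, 33.3, 37.1 and 25.4 CPM in the LPS + Tan mice. The sum was lowest in LPS + Tan replicate 4, as was that of the T cell markers, and this was the mouse with the highest H2-Aa, H2-Ab1, Cd74 and Ciita. The 8 alveolar type 2 markers, led by Sftpc, summed to 12385, 10950.4, 8934 and 7961 CPM in the LPS mice and 9661, 9739, 8215 and 13210.2 CPM in the LPS + Tan mice, and the 8 alveolar macrophage markers, led by Chil3 with a mean of 1386 CPM, to 2049.8, 2098, 1076 and 1376 CPM and 1655, 1745, 1075 and 2191 CPM. Both sums were highest in LPS + Tan replicate 4, and neither separated the groups. For the type 2 list this rested on Sftpc: without it the sum was 6566 CPM in LPS replicate 1 and 6075 CPM in LPS + Tan replicate 4, and only 3 of the 8 markers were highest in the latter. The sum of the alveolar macrophage markers stayed highest there without Chil3, with 5 of 8 markers highest in that mouse. Of these 8, 1 was lower at an unadjusted p below 0.05 without both replicates 4, and 0 in the other fits. The part of these cells in the high class II values of that mouse was not tested.

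The 8 markers of interstitial and other macrophages, led by Mrc1 with a mean of 148 CPM, summed to 502, 502, 459 and 387 CPM in the LPS mice and 616, 503, 502 and 456 CPM in the LPS + Tan mice. Of these, 1 was higher and 0 lower at an unadjusted p below 0.05, against 4 higher without LPS + Tan replicate 4 and 2 without both. The sums of the other lists overlapped between the groups, except for that of 4 plasmacytoid dendritic cell markers, led by Cox6a2 with a mean of 4.16 CPM, which was 5.19, 5.24, 5.20 and 4.20 CPM in the LPS mice and 5.29, 6.13, 6.13 and 6.11 CPM in the LPS + Tan mice. This rested on Cox6a2, since without it the sums overlapped, at 1.18, 1.04, 1.86 and 0.855 CPM and 1.57, 1.70, 0.778 and 1.22 CPM. The remaining sums ranged from 246 to 415 CPM for 5 monocyte markers led by Ly6c2, from 3544 to 5326 CPM for 7 neutrophil markers led by S100a9, and from 21.2 to 34.7 CPM for 7 T cell markers led by Lck. They ranged from 12623 to 19306 CPM for 4 markers of other epithelium led by Scgb1a1, from 2884 to 3590.4 CPM for 5 endothelial markers led by Cdh5, and from 1315 to 3427 CPM for 5 erythroid genes led by Hbb-bs. Over all samples the only call in these 6 lists was 1 higher endothelial marker, and without both replicates 4 there were 2. Of the other epithelial markers 1 was lower in both fits without replicates 4, and 1 erythroid gene was lower without LPS + Tan replicate 4.

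The H2 members lie together on chromosome 17, from H2-Oa at chr17:34092379-34095234 to H2-Eb1 at chr17:34305867-34316674 in GRCm38.p6, while Ciita, Cd80 and Cd86 lie on chromosome 16. Promoter windows from RefSeq on GRCm38.p6 were searched for 6 of the 10 members, and H2-Ab1, Cd74, Ciita and Cd86 were not analysed here. The Y box core TGATTGG, searched on both strands, was in the windows of 4 of them, H2-Aa, H2-Eb1, H2-DMb1 and H2-Oa, and in 7.82% of all 32851 windows. A core of the X box, written AACNNATGA and also searched on both strands, was in the windows of H2-Eb1 and H2-DMb1 and in 2.85% of all windows, and both cores were together in 0.307%. The windows of H2-DMa and Cd80 held neither string. Those of H2-DMa, chr17:34122582-34122881 and chr17:34125268-34125567, lay inside its annotated span of chr17:34119693-34139101. The Cd80 window, chr16:38458683-38458982, also lay inside the span of its gene, chr16:38457430-38495958. The rest of these spans was not searched, so the absence holds for these windows only. All 3 class II genes outside the members held TGATTGG, and H2-DMb2 and H2-Ob held both cores. The cores lay 20 bases apart in H2-DMb1 and in its copy H2-DMb2, 19 in H2-Eb1 and 17 in H2-Ob. The stretches that end shortly after the Y box are shown for all 7 class II windows with the Y core, whether or not the gene was high in the replicates 4. They run 5′ to 3′ on the strand of the gene, with the searched cores in capitals, at chr17:34287857-34287923 on the minus strand for H2-Aa and on the plus strand at chr17:34305756-34305822 for H2-Eb1, chr17:34153078-34153144 for H2-DMb1, chr17:34145107-34145173 for H2-DMb2, chr17:34092284-34092350 for H2-Oa, chr17:34238796-34238862 for H2-Ob and chr17:34325523-34325589 for H2-Eb2. A match describes the letters of the reference and not a bound site.
H2-Aa: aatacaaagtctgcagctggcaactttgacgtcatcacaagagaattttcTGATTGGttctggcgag
H2-Eb1: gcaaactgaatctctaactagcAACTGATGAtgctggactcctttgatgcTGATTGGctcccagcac
H2-DMb1: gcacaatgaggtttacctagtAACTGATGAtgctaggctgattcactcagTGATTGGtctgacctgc
H2-DMb2: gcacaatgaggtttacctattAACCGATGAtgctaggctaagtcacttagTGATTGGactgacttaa
H2-Oa: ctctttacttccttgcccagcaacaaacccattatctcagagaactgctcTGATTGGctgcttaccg
H2-Ob: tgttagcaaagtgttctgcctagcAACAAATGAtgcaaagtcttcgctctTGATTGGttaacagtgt
H2-Eb2: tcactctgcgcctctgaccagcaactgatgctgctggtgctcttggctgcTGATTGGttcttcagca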

How the data were processed

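RNA-seq counts of lung tissue from 4 LPS and 4 LPS + Tan mice were analysed, grouped by the labels. The authors deposited raw read counts per gene and FPKM values for the same 24584 genes. Each deposited FPKM equals the count over a gene length and over the sample's total. The methods describe TRIzol extraction and a VAHTS Universal V6 library kit, while the labels name an Rneasy column kit and a SMRTER mRNA-seq kit. The submitters' processing notes name GRCm38 and mm10, and the sources used here give neither aligner nor counter. No column of sample values lacked a sample.

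The test was the quasi-likelihood F test of edgeR 4.0.16 (R 4.3.3) after filterByExpr and TMM scaling (factors 0.9587 to 1.054), with no covariate and Benjamini-Hochberg adjustment over 15706 genes. An SE is the log2 fold change divided by the square root of F, without sign. Correlations use log2 CPM with a prior count of 2. Differences between mice of a group were 7.83 to 22.4 times sampling noise. The fit was tried on simulated data first. With 0 genes changed, edgeR made 0 calls and DESeq2 3. With 200 genes changed 2-fold or 3-fold, 4.61% and 4.35% of edgeR's calls were false, against 23.7% and 18.6% of those of DESeq2. Alternatives were DESeq2 1.42.0, limma 3.58.1 (voom, or FPKM with 1 or 0.1 added before log2), edgeR's likelihood ratio test, RLE, upper-quartile or no scaling factors, no filter or 1 CPM in 4 samples, a block for the replicate number, and leaving out each sample. Leaving out replicate 4 of both groups was added after seeing the data.

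The members and the lists were chosen with earlier results of these data known, and 1 gene was taken off the interferon-gamma list after its values were seen. The rule for other named genes took, from each pathway list, the 2 with the lowest p in each direction and any with an unadjusted p below 0.05, then the 5 most like the class II chains and the most abundant gene of each cell type list. Genes outside this rule are markers of tissue or were named after their values were seen, as the text says. Promoter windows and positions come from RefSeq on GRCm38.p6, and transcripts from GENCODE M21, aligned with Biopython 1.88 in Python 3.11.15.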

Additional observations from a re-analysis of the deposited data

Results flagged for a closer look

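Within each group of 4 mice, log2 CPM values were examined for a sample whose gap to its nearest neighbour took up most of the range of the group. Of 76 groups, from 38 of the genes named in the text, 8 held such a sample, and chance marks about 1 in 20 groups, here 3.8. That number holds for independent groups chosen without regard to their values. Some of these genes were named after their values were seen and several members varied together, so an excess cannot be read from it. LPS replicate 4 was the high sample of its group for H2-Eb1, where the gap was 0.939 of the range, for H2-DMb1 with 0.87 and for H2-Aa with 0.84. In LPS + Tan replicate 4, Sppl2a was high with a gap of 0.843 of the range and Nfyc low with 0.87. LPS replicate 2 was the low sample for Rfxank with 0.883 and for Ifng with 0.877, and LPS replicate 3 the high sample for Il10ra with 0.926. The H2-Eb1 values of LPS + Tan replicate 4 and the Ciita and Ifng values of that mouse did not reach the critical share for 4 samples.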

How the results depend on the processing

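Over all 8 samples 2 members were lower at an unadjusted p below 0.05. The count was 1, with Cd86 lost, with library totals alone (log2 fold change of Cd86 −0.29) and in the 3 limma fits of FPKM (1 added −0.23, 0.1 added −0.28, all genes −0.23), and 0 to 6 when each sample was left out in turn, with 0 without LPS replicate 3 and 6 without LPS + Tan replicate 4. With an absolute log2 fold change above 1 as well, 0 members passed, against 0 to 2 with each sample left out and 1, Ciita (−1.16), without replicate 4 of both groups, an alternative added after seeing the data in which Cd80 was at −0.34. Of all tested genes 0 had an adjusted p below 0.05 in edgeR's quasi-likelihood test, against 35 with DESeq2, 23 with edgeR's likelihood ratio test, 2 with limma on the FPKM of all genes and 0 to 1 with each sample left out. Leaving out each sample gave log2 fold changes of −0.70 to 0.17 for H2-Aa, −0.53 to 0.096 for H2-Ab1, −3.03 to 1.88 for H2-Eb1, −0.45 to 0.16 for H2-DMa, −0.71 to 0.32 for H2-DMb1 and −0.34 to 0.074 for Cd74, so that the direction of these 6 turned with single mice. The direction was kept for Ciita (−1.29 to −0.19), Cd80 (−0.47 to −0.28), Cd86 (−0.40 to −0.27) and H2-Oa (−0.42 to −0.18). Leaving out single samples took Cd80 past an unadjusted p of 0.05 without replicate 3 of either group, and Cd86 without LPS replicates 2 or 3 or LPS + Tan replicates 1 or 4. The filter of 1 CPM in 4 samples removed H2-Oa, which then had no value, and DESeq2 gave no p for H2-Eb1.

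The labels do not say that a replicate number marks a shared litter or batch. Deviations from the group means correlated at 0.123, −0.0306, −0.148 and 0.0195 within replicates 1 to 4, and not every sample correlated best with the one of its own number. With the replicate block, 4 members were lower at an unadjusted p below 0.05: Cd80, Cd86, H2-Eb1 (log2 fold change −0.59) and Ciita (−0.77), beside 429 of 15706 tested genes (2.73%) lower in that fit, and 0 genes had an adjusted p below 0.05. Depth limits H2-Oa, with 118 counts over the LPS + Tan mice, more than the other members. For each of these, the cause was not tested.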
